A study of Mus musculus with 6 samples.

Results

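Lung T and natural killer (NK) lymphocytes were followed in single-cell libraries from normal mouse lung and from lung infiltrated by acute myeloid leukaemia (AML). The barcodes were selected on their own gene counts, by a rule on raw unique molecular identifiers (UMIs, 1 per captured RNA molecule). A lymphocyte barcode needed at least 500 genes, at most 15% of UMIs from mitochondrial genes, and at least 2 UMIs in sum from Cd3e, Cd3d, Trbc2 and Nkg7. It also had to have no UMI of the B cell genes Cd79a and Ms4a1 or of the epithelial gene Epcam. At most 1 UMI was allowed from the endothelial genes Cdh5, Pecam1 and Cldn5, and at most 1 from Trap1a and Trnp1, which served to keep leukaemia cells out. The levels of these rule genes are given as a description only. The rule found 247 barcodes among 24640 that passed the gene and mitochondrial limits, out of 28516 barcodes in all.

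The study compared 3 libraries of normal lung (Control 1 to 3) with 3 libraries of lung infiltrated by an AML of genotype Trp53 R172H/Δ, with 1 mutant and 1 deleted allele of the tumour suppressor gene (AML 1 to 3). Lungs had been digested with Liberase and DNaseI and sorted for the non-haematopoietic niche fraction. Sorted GFP-positive leukaemia cells were added back to the AML libraries as 20% of the cells, against 80% niche cells. The lymphocytes described here are therefore haematopoietic cells that came through a sort aimed at other cells, so their number says how many came through and not how many the lung held. The labels give no strain, age or sex and do not tell if each library is its own animal, and every p-value below therefore rests on a spread between libraries that may be technical.

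T cells recognise peptides on other cells through a clonotypic receptor whose chains signal through the CD3 proteins. CD4 T cells help or restrain other immune cells and CD8 T cells kill, while gamma-delta T cells use another pair of receptor chains. NK cells carry no such receptor: they weigh activating and inhibitory receptors and kill with perforin and granzymes. In the lung both lie in the vessels and the tissue, and both take part in the control of leukaemias.

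The promoters of 2 NK and 2 T cell genes are shown first, because short motifs were unequally common in the promoters of the T and NK markers. The 200 bases before the RefSeq start site (GRCm38.p6) are given 5′ to 3′ on the gene's strand. Ncr1, the activating NK receptor NKp46, lies at chr7:4337515-4337714 on the plus strand, and Gzma, which encodes the protease granzyme A, at chr13:113100982-113101181 on the minus strand. Cd3d at chr9:44981586-44981785 on the plus strand and Cd3g at chr9:44980432-44980631 on the minus strand encode CD3 chains and are neighbours that read away from each other. Capitals mark every match to 4 motifs on either strand: RUNX (TGTGGT or ACCACA), an E-box (CAGGTG or CACCTG), ETS (GGAAGT or ACTTCC) and a GC box (GGGCGG or CCGCCC).
Ncr1: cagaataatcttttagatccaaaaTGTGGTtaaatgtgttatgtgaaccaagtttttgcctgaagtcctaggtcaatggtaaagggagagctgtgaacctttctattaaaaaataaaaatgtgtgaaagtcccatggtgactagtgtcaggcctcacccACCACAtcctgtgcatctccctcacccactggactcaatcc
Gzma: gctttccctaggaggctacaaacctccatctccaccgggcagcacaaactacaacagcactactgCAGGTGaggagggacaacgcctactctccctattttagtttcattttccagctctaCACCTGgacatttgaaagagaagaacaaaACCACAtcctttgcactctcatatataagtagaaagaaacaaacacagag
Cd3d: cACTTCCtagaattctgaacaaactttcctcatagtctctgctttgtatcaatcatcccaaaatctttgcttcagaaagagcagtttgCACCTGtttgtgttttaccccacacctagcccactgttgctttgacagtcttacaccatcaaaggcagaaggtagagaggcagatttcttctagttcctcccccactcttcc
Cd3g: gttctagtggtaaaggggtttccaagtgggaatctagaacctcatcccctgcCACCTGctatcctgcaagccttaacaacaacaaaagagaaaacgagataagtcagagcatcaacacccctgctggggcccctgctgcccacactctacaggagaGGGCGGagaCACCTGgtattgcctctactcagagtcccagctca

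In Ncr1 the RUNX matches start 176 and 41 bases before the start site, and in Gzma the RUNX match starts 50 bases before it and E-boxes start at 135 and 79 bases. In Cd3d the E-box starts 112 bases and the ETS match 199 bases before the start site, and Cd3g has E-boxes at 148 and 35 bases and a GC box at 44. Over 250 upstream bases, searched on both strands, RUNX letters stood in 8 of the 9 NK marker genes with a RefSeq promoter (88.9%), with Eomes as the exception. They stood in 1 of 5 T marker genes (20%, Lck) and in 15.9% of all 27025 genes. The E-box letters stood in 4 of 5 T markers (80%), 2 of 9 NK markers (22.2%) and 19.4% of all genes. The ETS letters stood in 4 of 5 T markers, 3 of 9 NK markers (33.3%) and 22.2% of all genes. A GC box was in 2 of 5 T markers (40%), none of the 9 NK markers and 35.4% of all genes. Each marker list holds 10 genes, and a match is a description of the letters.

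The libraries held between 19060359 and 46018541 UMIs in total, with the most in the 3 AML libraries and the fewest in Control 1, which also had the fewest barcodes. The lymphocytes had median depths of 11863, 5871 and 5044 UMIs per barcode in Control 1, 2 and 3, and 4315.5, 3566 and 2992 in AML 1, 2 and 3. The 3 AML libraries were thus below all Control libraries in UMIs per lymphocyte, although they held more UMIs in total. The same held for B cells, with medians of 2798, 2180.5 and 2075.5 UMIs in AML against 6642.5, 4248 and 3941.5 in Control. It held for endothelial barcodes too, at 3797, 4230.5 and 3039.5 UMIs in AML against 8521, 5423 and 4710 in Control. No barcode sequence was a lymphocyte in more than 1 library, and any pair of libraries shared at most 20 passing barcodes. Control 1 stands apart, with 6 lymphocytes, and a minimum of 10 barcodes left it out of the fits of all lymphocytes, of the T part and of the differences from other cells, except where its inclusion is named. Those comparisons of gene levels therefore set 2 Control libraries against 3 AML libraries, whereas the endothelial changes quoted beside them come from 3 against 3.

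Lymphocytes were counted in 6 of 1742, 51 of 3788 and 53 of 3545 passing barcodes in Control 1, 2 and 3, and in 64 of 4670, 35 of 4809 and 38 of 6086 in AML 1, 2 and 3. The shares were thus 0.344%, 1.35% and 1.5% in Control, against 1.37%, 0.728% and 0.624% in AML. AML 1 was at the level of Control 2 and 3, AML 2 and 3 were lower, and Control 1 was lowest, so the groups overlapped. The means were 1.06% ± 0.626 (SD, n = 3) in Control and 0.908% ± 0.404 (SD, n = 3) in AML, and the difference of -0.154 percentage points had a two-sided exact permutation p of 0.9, where the smallest possible is 0.10. Among barcodes with a UMI of the leukocyte gene Ptprc and at most 1 UMI of Trap1a and Trnp1, the shares were 8.11%, 33.3% and 32.9% in Control and 28.1%, 26.2% and 21.8% in AML. The added leukaemia cells enlarge the denominator of the AML shares, and the sort sets them as well.

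**Figure D1:**
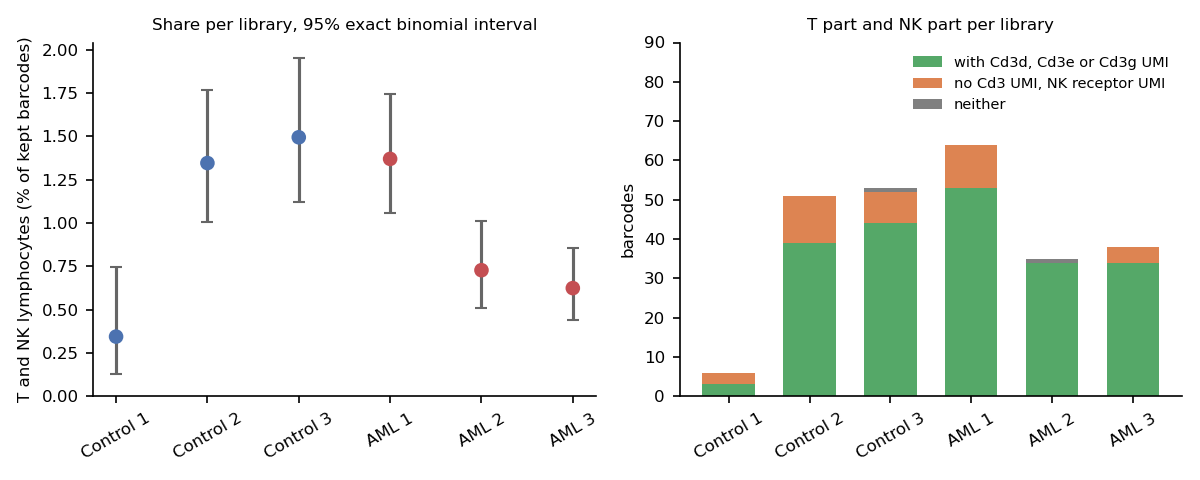
Left, T and NK lymphocytes as a percentage of passing barcodes in each library, with 95% exact (Clopper-Pearson) binomial intervals that cover counting error only. Right, the same barcodes split into those with a CD3 UMI (green), those with an NK receptor UMI and no CD3 UMI (orange) and neither (grey). Control 1 holds 6 barcodes and AML 2 holds none of the NK part.

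The members fell into a T part and an NK part by receptor genes. The T part had at least 1 UMI of Cd3d, Cd3e or Cd3g and held 207 barcodes: 3, 39 and 44 in Control 1, 2 and 3 and 53, 34 and 34 in AML 1, 2 and 3. The NK part had no UMI of these and at least 1 of the NK receptor genes Ncr1, Klrb1c or Klre1, and held 38 barcodes: 3, 12 and 8 in Control and 11, 0 and 4 in AML. The other 2 barcodes met neither definition. The T part label was borne out by a gene outside the rule, least so in AML 2. This was Trac, the constant region of the T cell receptor alpha chain. It was in 87.2% and 86.4% of T part barcodes in Control 2 and 3. In AML 1, 2 and 3 it was in 90.6%, 41.2% and 67.6%. Over all libraries Trac was found in 160 of the 207 T part barcodes. The receptor kinase gene Lck was found in 130, but it does not tell the parts apart. It was also in 2, 12 and 6 NK part barcodes of Control 1, 2 and 3 and in 8 and 2 of AML 1 and 3. Trac was found in at most 0.234% of the endothelial barcodes of any library and Cd3g in at most 0.792%. Endothelial barcodes were defined with no UMI of Cd3e, Cd3d, Trbc2, Nkg7 or Ptprc, so these shares can understate the free RNA in droplets. The NK gene Gzma was in 3.39% of the endothelial barcodes of Control 3.

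Genes of the killing machinery were high in the NK part of every library that had one. The granzyme A gene Gzma gave 222, 811 and 655 UMIs in Control 1, 2 and 3 and 459 and 87 in AML 1 and AML 3, and was present in 38 of 38 barcodes. As counts per 1000000 UMIs of the NK part (CPM) these are 7218, 12688 and 15720 in Control and 11150 and 9126 in AML, so both AML values lay below Control 2 and 3 and above Control 1, which holds 3 NK part barcodes. One of those 3 also carries 326 UMIs of mesenchymal markers. The chemokine gene Ccl5 gave 5885, 24311 and 25656 CPM in Control and 14429 and 21504 CPM in AML, also in 38 of 38 barcodes, and its AML values too lay below Control 2 and 3 and above Control 1. Tyrobp, the signalling adaptor of activating NK receptors, Fcer1g, its partner adaptor, and Klrk1, the receptor NKG2D, were likewise in all 38. Perforin (Prf1) was in 35 barcodes, the granzyme B gene Gzmb in 31 and the transcription factor gene Eomes in 22. Ncr1 was in 33, but it helps to define the NK part, so its count is a description.

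Members of the NK part differed in the inhibitory and activating Ly49 receptors. Klra8 was seen in 28 of 38 barcodes and Klra4 in 27, and Klra8 gave no UMI in the T part. The cytokine gene Ifng gave 2, 15 and 12 UMIs in Control 1, 2 and 3 and 28 and 2 in AML 1 and 3, and was present in 22 barcodes. Ccl4, a chemokine gene of activated killer cells, gave 1, 389 and 52 UMIs in Control and 166 and 3 in AML, so its level differed widely between libraries of the same group. The T cell genes Il7r, Cd4, Cd8a, Cd5 and Cd6 gave no UMI in the NK part, while Trdc, which encodes the delta chain constant region, gave 15 UMIs in 9 barcodes. Control 2 and AML 1 alone had the 10 or more NK barcodes set as the minimum for a fit. With a minimum of 3, chosen after seeing the data, 3 Control and 2 AML libraries entered, and edgeR called 0 of 734 genes (0%), with 26 at an unadjusted p under 0.05. DESeq2 called 0 too, with 12 at an unadjusted p under 0.05. At that minimum the change between AML and Control differed between the T part and the NK part for 0 of 1238 genes (0%) by edgeR, with 49 at an unadjusted p under 0.05. DESeq2 was not run on that difference, which gave 1 call without Control 1 and 2 calls each without Control 3 or without AML 3.

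**Figure D2:**
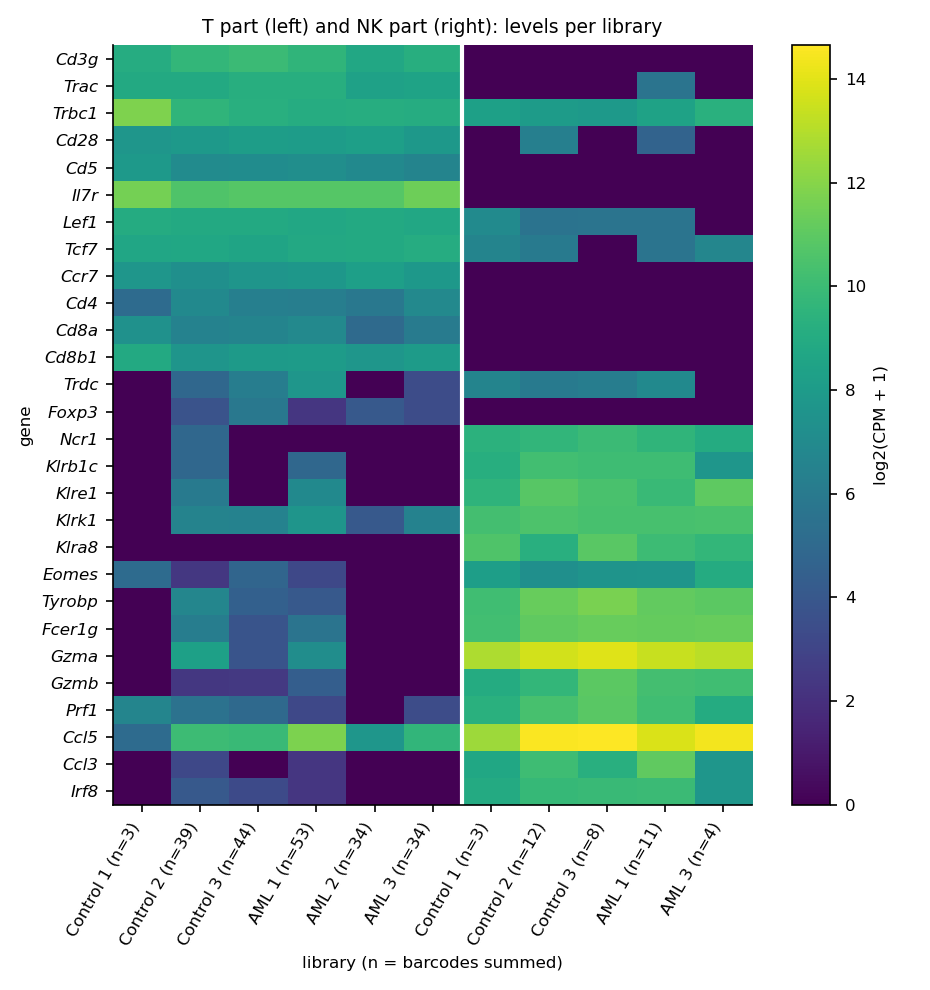
Levels of 28 genes as log2(CPM + 1) in the T part (left of the white line) and NK part (right) of each library, where n is the number of barcodes summed. Trac and Il7r are high across the T part and Gzma, Tyrobp and Klra8 across the NK part; a value of 0 means that no UMI was found.

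Killing genes were sparse in the T part. Gzma was found in 5 of 207 T part barcodes and Ifng in 16, and Ccl5 was found in 32. Of the Gzma UMIs, 79 came from 1 barcode of Control 2. Ccl5 stood in 1 of 3, 4 of 39 and 5 of 44 barcodes in Control 1, 2 and 3 and in 17 of 53, 3 of 34 and 2 of 34 in AML 1, 2 and 3. Among the libraries with over 3 T part barcodes AML 1 had the highest share, 32.1%, while AML 2 and AML 3 were at 8.82% and 5.88%, so the AML libraries lay on both sides of Control 2 and 3. Endothelial barcodes held Ccl5 in 4.86% of cases in Control 3 and in at most 0.468% elsewhere.

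Genes of naive and recirculating T cells were common instead. Lef1, a transcription factor gene of naive T cells, was present in 74.4% and 70.5% of T part barcodes in Control 2 and 3 and in 66.0%, 70.6% and 52.9% in AML 1, 2 and 3. Ccr7, the chemokine receptor for entry into lymph nodes, was present in 46.2% and 43.2% in Control and 43.4%, 58.8% and 35.3% in AML. The groups overlapped for Ccr7 and, at AML 2, for Lef1. The regulatory T cell factor Foxp3 gave 0, 3 and 13 UMIs in Control 1, 2 and 3 and 1, 2 and 1 in AML 1, 2 and 3. The proliferation marker Mki67 gave 2 UMIs in the whole T part.

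CD4 T cells, with a Cd4 UMI and none of Cd8a or Cd8b1, numbered 1, 15 and 12 in Control and 11, 4 and 4 in AML. CD8 T cells, with the reverse, numbered 2, 7 and 13 in Control and 17, 15 and 11 in AML, and lymphocytes with a Trdc UMI numbered 1, 5 and 6 in Control and 7, 0 and 1 in AML, 9 of them in the NK part. As shares of all lymphocytes without thinning, CD4 cells made up 26.0% in the mean of Control 2 and 3 and 13.0% in AML, and CD8 cells 19.1% and 32.8%. Since AML lymphocytes were shallower, each barcode was then thinned to 1000 UMIs, which all 247 lymphocytes held. CD4 cells were then 5.81% ± 2.88 (SD, n = 2) in Control and 3.84% ± 3.36 (SD, n = 3) in AML, and CD8 cells 13.4% ± 5.08 and 14.8% ± 2.09. Thinned to 2000 UMIs, CD4 cells were 13.5% in Control and 8.84% in AML, a difference of -4.63 points, and CD8 cells 15.4% and 21.0%, a difference of 5.62 points. Each of these had an exact permutation p of 0.2 (adjusted p = 0.5). At 1000 UMIs NK cells were 20.3% ± 10.1 in Control and 8.20% ± 7.32 in AML, and T part barcodes 69.1% ± 6.28 and 74.3% ± 0.659. The NK difference of -12.1 points had an exact permutation p of 0.4, the T part difference of 5.18 points a p of 0.2, and the CD4 and CD8 differences a p of 0.6 each, two-sided, at 1000 UMIs, where the smallest possible p with 2 against 3 libraries is 0.2. With the gamma-delta share these are 5 comparisons, whose Benjamini-Hochberg adjusted exact p-values were 0.75 or 1. AML 2 had 0 NK part barcodes of 35, which allows a share of up to 10.0% by the exact interval.

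Variable segments of the T cell receptor lie far from the 3′ end that is read, and few barcodes gave one. A beta variable gene (Trbv) was seen in 1 of 3, 16 of 39 and 9 of 44 T part barcodes in Control 1, 2 and 3 and in 11 of 53, 3 of 34 and 3 of 34 in AML. Of the 35 Trbv genes in the files, 10 were seen in Control 2, 8 in Control 3, 9 in AML 1 and 3 each in AML 2 and AML 3. The number of genes seen thus followed the number of barcodes with a segment. In Control 1 the 3 T part barcodes gave 106 UMIs of Trbc1, or 3585 CPM, against 526 to 780 CPM in the other libraries.

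Gene levels of the T part were compared between AML and Control by edgeR's quasi-likelihood test on UMI sums per library over 3519 genes, with Benjamini-Hochberg adjustment over all of them. The test called 3 genes higher in AML, which is 0.0853% of the genes tested, and none lower. At an unadjusted p under 0.05, 119 genes were higher (3.38%) and 99 lower (2.81%), and DESeq2 called 0 genes, with 55 at an unadjusted p under 0.05. The 3 genes were Neb, Fam241a and Bcl2. The number of calls was 0 without Control 3 or without AML 2, 10 without AML 1 and 4 without Control 2 or without AML 3.

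Bcl2 (ENSMUSG00000057329, chr1:106538178-106714274 on the minus strand in mm10) encodes the anti-apoptotic protein that keeps resting lymphocytes alive downstream of the IL-7 receptor. Its level was 257 and 354 CPM in Control 2 and 3, against 611, 741 and 497 CPM in AML 1, 2 and 3. All 3 AML libraries lay above both, while the 3 T part barcodes of Control 1, outside the fit, gave 507 CPM, above AML 3. Means were 306 ± 68.2 CPM (SD, n = 2) and 616 ± 122 CPM (SD, n = 3), a log2 change of 1.10 ± 0.25 (SE) with an edgeR adjusted p of 0.0404. A UMI was found in 59.0% and 61.4% of T part barcodes in Control and in 67.9%, 79.4% and 61.8% in AML, against 6.13% to 26.8% of endothelial barcodes.

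The call on Bcl2 was made in 6 of 15 alternative settings. Among them, leaving out top Scrublet doublet scores removed no T part barcode, so that setting only repeats the main fit. Without Control 2 the log2 change was 0.87 (edgeR adjusted p = 0.926), without Control 3 it was 1.30 (adjusted p = 0.220) and without AML 2 it was 0.92 (adjusted p = 0.637). With Control 1 included it was 0.99 (edgeR adjusted p = 0.353). The sign was the same in all 15, and the adjusted p ranged from 0.000859 to 0.926.

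Neb (ENSMUSG00000026950, chr2:52136647-52378474 on the minus strand) encodes nebulin, known as the ruler protein of thin filaments in skeletal muscle. In the T part it gave 0, 2 and 0 UMIs in Control 1, 2 and 3 and 14, 17 and 4 in AML 1, 2 and 3, so every AML library lay above every Control library. Summed over the libraries in the fit, these are 35 UMIs among 474343 in AML and 2 among 473687 in Control, a ratio of 17.5 with a 95% interval of 4.49 to 150 that covers counting error only. The levels were 4.09 ± 5.78 CPM (SD, n = 2) and 77.9 ± 53.1 CPM (SD, n = 3), with a log2 change of 4.04 ± 0.83 and an edgeR adjusted p of 0.0306.

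The Neb UMIs were spread over barcodes. They came from 8 of 53, 13 of 34 and 4 of 34 T part barcodes in AML 1, 2 and 3, with at most 5 UMIs in 1 barcode, and no NK part barcode had any. Endothelial barcodes held Neb in 0.420% to 0.859% of cases in Control and in 0.110% to 0.321% in AML, against 11.8% to 38.2% of AML T part barcodes. Of the 25 AML barcodes with Neb, 9 were CD8 and 3 were CD4 by the definitions above, and 19 had a Lef1 UMI and 24 an Il7r UMI. Among all 121 AML T part barcodes these numbers were 43, 19, 77 and 115. The annotation places 3 other gene models over Neb, 1 of them a processed pseudogene on the same strand.

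Neb kept its call in 10 of the 12 alternative settings in which it had enough UMIs to be tested. It lost the call without Control 3 (log2 change 3.13, edgeR adjusted p = 0.175) and under DESeq2 (adjusted p = 0.552). It had too few UMIs to be tested in the T part without AML 1, without AML 2 or with Control 1 included. The setting without top Scrublet scores, among those that kept the call, only repeats the main fit.

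Fam241a (ENSMUSG00000050549, chr3:127869058-127896324 on the minus strand) gave 101, 65.4 and 69.9 CPM in Control 1, 2 and 3 and 129, 318 and 204 CPM in AML 1, 2 and 3. In CPM the AML libraries lay above the Control libraries, Control 1 included. A UMI was found in 2 of 3, 6 of 39 and 13 of 44 T part barcodes in Control 1, 2 and 3. In AML 1, 2 and 3 it was found in 13 of 53, 17 of 34 and 12 of 34. These shares overlapped between the groups, with AML 1 (24.5%) below Control 3 (29.5%). Of the 32 UMIs in AML 1, 9 came from 1 barcode. Means were 67.6 ± 3.21 CPM (SD, n = 2) and 217 ± 95.1 CPM (SD, n = 3), with a log2 change of 1.68 ± 0.37 and an edgeR adjusted p of 0.0404. Fam241a kept the call in 7 of 15 settings, among them that without top Scrublet scores, which only repeats the main fit. Without Control 2, Control 3, AML 2 or AML 3 the log2 changes were 1.64, 1.70, 1.24 and 1.68, with edgeR adjusted p-values of 0.261, 0.229, 0.667 and 0.0810.

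**Figure D3:**
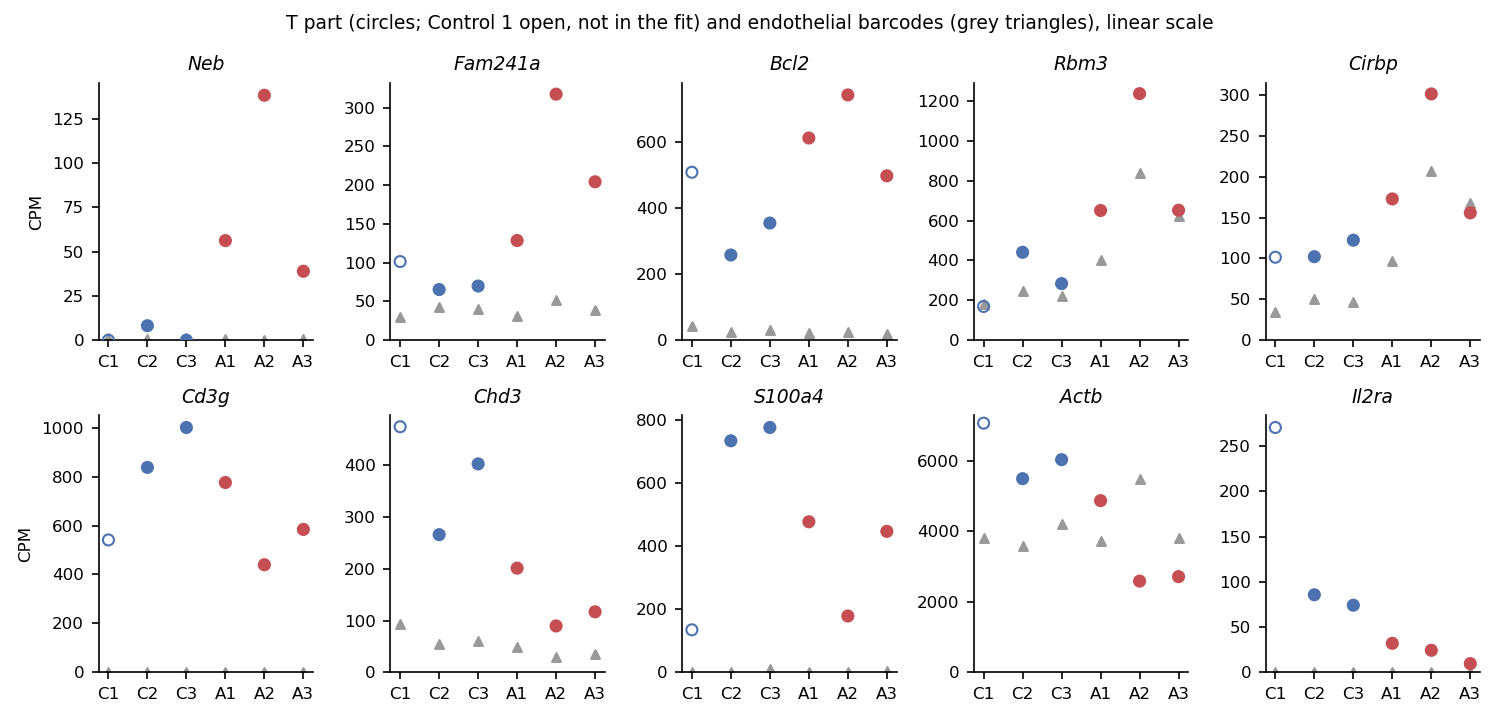
CPM of 10 genes in the T part (circles; blue Control, red AML; Control 1 open because it is outside the fit) and in endothelial barcodes of the same library (grey triangles), on linear axes. Neb, Fam241a and Bcl2 passed the test; the other 7 did not. Rbm3 and Cirbp are higher in AML in both cell classes.

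Several genes lay apart between the groups without passing the test. For genes outside the gene lists, lying apart was a condition of being named. Rbm3, a cold-inducible RNA-binding protein gene, stood at 441 and 284 CPM in Control 2 and 3, against 651, 1238 and 652 CPM in AML (log2 change 1.30 ± 0.30, edgeR adjusted p = 0.131). It passed without Control 2, without AML 1 and without AML 3, with log2 changes of 1.65, 1.5 and 1.42 and edgeR adjusted p-values of 0.0143, 0.0161 and 0.0478. Cirbp, its relative, stood at 102 and 122 CPM in Control, against 173, 301 and 156 CPM in AML. In endothelial barcodes of the same libraries Rbm3 and Cirbp passed the edgeR test, with log2 changes of 1.58 (adjusted p = 0.0399) and 1.90 (adjusted p = 0.0230). In the NK part Rbm3 was 228, 360 and 240 CPM in Control and 656 and 944 CPM in AML 1 and 3, so the order of the groups was the same there.

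Gimap5, a GTPase gene needed for the survival of naive T cells, stood at 94.0 and 105 CPM in Control 2 and 3, against 193, 228 and 204 CPM in AML (log2 change 1.12 ± 0.32, edgeR adjusted p = 0.285). The 3 T part barcodes of Control 1 gave 33.8 CPM. The log2 change of Gimap5 was 0.90 in endothelial cells (edgeR adjusted p = 0.125) and 0.19 in B cells (adjusted p = 0.942). Rnf125, a ubiquitin ligase gene, stood at 32.7 and 34.9 CPM in Control, against 88.4, 147 and 97.4 CPM in AML (log2 change 1.72 ± 0.44, edgeR adjusted p = 0.131). The Control 1 barcodes gave 338 CPM of Sh3bp5, above every AML library, and 169 CPM of the kinase gene Hipk1, within the AML range. These 2 genes had log2 changes of 1.41 ± 0.40 and 1.09 ± 0.34, with edgeR adjusted p-values of 0.285 and 0.456.

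On the lower side no gene passed with all 5 libraries. Chd3, a chromatin remodeller gene of the NuRD complex, stood at 266 and 402 CPM in Control, against 201, 89.6 and 117 CPM in AML (log2 change -1.12 ± 0.28, edgeR adjusted p = 0.131). Its log2 change was -0.80 in endothelial cells (edgeR adjusted p = 0.101) and -1.14 in B cells (adjusted p = 0.508). S100a4, a calcium-binding protein gene of memory and effector T cells, stood at 735 and 778 CPM in Control 2 and 3, against 478, 179 and 448 CPM in AML (log2 change -0.95 ± 0.25, edgeR adjusted p = 0.186). The Control 1 barcodes gave 135 CPM of S100a4, below every other library. Il2ra, the alpha chain of the IL-2 receptor, stood at 85.8 and 74.3 CPM in Control, against 32.2, 24.4 and 9.74 CPM in AML (log2 change -1.60 ± 0.49, edgeR adjusted p = 0.343). Actb, the beta actin gene, stood at 5495 and 6033 CPM in Control, against 4871, 2589 and 2716 CPM in AML (log2 change -0.69 ± 0.21, edgeR adjusted p = 0.343). Without AML 1, Chd3 and Actb passed, with log2 changes of -1.58 (edgeR adjusted p = 0.0430) and -1.01 (adjusted p = 0.00917).

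Gene lists were then read by their counts beside the same counts over all 3519 genes of the T part, where the median log2 change was 0.02, 51.7% lay above 0 and 48.3% below. AML libraries lay entirely above the Control libraries for 8.24% of all genes and entirely below for 13.3%. Bcl2, Neb and Fam241a are in no list, and no list gene passed the adjusted test with all 5 libraries.

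Of the receptor complex and its signalling genes, 15 beyond the rule genes were tested and 11 lay below 0, with a median of -0.12. Cd3g is among the 15 but helps to define the T part, so its level is a description: 837 and 1000 CPM in Control and 776, 440 and 584 CPM in AML. Trac had a log2 change of -0.22 ± 0.24, the coreceptor gene Cd28 of 0.12 ± 0.26 and Cd247, the zeta chain, of 0.08 ± 0.30, and their groups overlapped.

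Of 13 CD4 helper and regulatory genes 8 could be tested, and 6 lay below 0 with a median of -0.52. Il2ra, Cd40lg, Icos and Ikzf2 were lower at an unadjusted p under 0.05 and Tnfrsf18 was higher. Cd40lg, the ligand with which helper T cells license B cells and dendritic cells, gave 21 and 11 UMIs in Control 2 and 3 and 7, 2 and 1 in AML (log2 change -1.62 ± 0.57, edgeR adjusted p = 0.593). The share of T part barcodes with a Cd4 UMI was 41.0% and 27.3% in Control 2 and 3 and 20.8%, 14.7% and 14.7% in AML, so these values moved together with the number of CD4 barcodes and with depth per barcode, and their part in the result was not tested. Of the 5 tested genes of CD8 and gamma-delta T cells none had an unadjusted p under 0.05. Cd8b1, a chain of the CD8 coreceptor, stood at 200 and 249 CPM in Control, against 257, 204 and 263 CPM in AML.

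Of 14 genes of the naive and recirculating state 13 were tested and 12 lay above 0, with a median of 0.25. AML lay entirely above Control for 5 of the 13 and entirely below for none. Klf3, a transcription factor gene linked to quiescence and recirculation, had the lowest p, at 241 and 258 CPM in Control and 313, 497 and 312 CPM in AML (log2 change 0.65 ± 0.26, edgeR adjusted p = 0.690). Il7r, the IL-7 receptor alpha chain on which naive T cells depend, stood at 1589 and 1734 CPM in Control, against 1768, 1767 and 2707 CPM in AML. Tcf7, a transcription factor gene of naive and stem-like T cells, stood at 421 and 371 CPM in Control, against 466, 480 and 535 CPM in AML. Lef1 had a log2 change of 0.01 ± 0.23.

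Of 16 effector memory and residence genes 9 were tested, 5 above and 4 below 0, with a median of 0.09. Itga4, the alpha chain of the integrin VLA-4, was higher at an unadjusted p under 0.05, and the chemokine receptor gene Cxcr6 and the surface antigen gene Ly6c2 were lower. Of 10 checkpoint receptor genes 4 were tested, and Cd96 alone had an unadjusted p under 0.05, at 118 and 78.6 CPM in Control and 56.3, 16.3 and 68.2 CPM in AML. Of 16 genes of secreted chemokines and cytokines 4 were tested. Ifng gave 15 and 16 UMIs in Control 2 and 3 and 5, 2 and 0 in AML (log2 change -2.07 ± 0.67, edgeR adjusted p = 0.498), and the Control 1 barcodes gave none. Ltb, the lymphotoxin beta gene, had a log2 change of -0.55 ± 0.23 (edgeR adjusted p = 0.690).

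The actin and adhesion genes of lymphocytes were the list with the most members lower: of 19 tested, 17 lay below 0 with a median of -0.45, and 6 had an unadjusted p under 0.05. Those 6 were Actb, S100a4, S100a11, S100a10, Lgals1, which encodes galectin-1, and Selplg, the ligand of P-selectin. An unadjusted p under 0.05 on the lower side was found for 2.81% of all tested genes. AML lay entirely below Control 2 and 3 for 6 of the 19, the same 6 genes, against 13.3% of all tested genes. Without AML 1, Lgals1 passed with a log2 change of -1.42 (edgeR adjusted p = 0.0217). The AML libraries also had the fewest UMIs per T part barcode, and the part of depth in this list was not tested.

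Of 8 heat shock chaperone genes tested, 8 lay below 0 with a median of -0.42, and Hsph1 and Hspa8 had an unadjusted p under 0.05. Hsph1, a co-chaperone gene of HSP70, gave 16 and 26 UMIs in Control 2 and 3 and 13, 1 and 1 in AML (log2 change -1.46 ± 0.48, edgeR adjusted p = 0.516). Endothelial barcodes of the same libraries had a log2 change of -1.89 for Hsph1 (edgeR adjusted p = 0.0204). Of 10 glucocorticoid response genes 7 were tested with a median of 0.50. Tsc22d3, which encodes the glucocorticoid-induced leucine zipper GILZ, stood at 596 and 590 CPM in Control, against 816, 847 and 828 CPM in AML (log2 change 0.56 ± 0.23, edgeR adjusted p = 0.690), and the Control 1 barcodes gave 271 CPM.

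Interferon genes gave no common direction. Of 24 type I interferon genes 8 could be tested, 4 above and 4 below 0, none with an unadjusted p under 0.05. Of 20 interferon gamma induced genes 8 were tested and 7 lay below 0 with a median of -0.41; the GTPase genes Gbp6 and Igtp had an unadjusted p under 0.05. Of 18 genes of MHC class I presentation 15 lay below 0 with a median of -0.16 and none had an unadjusted p under 0.05. The 20 activation genes (15 tested), 18 cytokine receptor genes (9 tested), 16 glycolysis and hypoxia genes (10 tested), 18 proliferation genes (5 tested) and 23 respiratory chain genes (23 tested) had medians between -0.13 and 0.17.

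**Figure D4:**
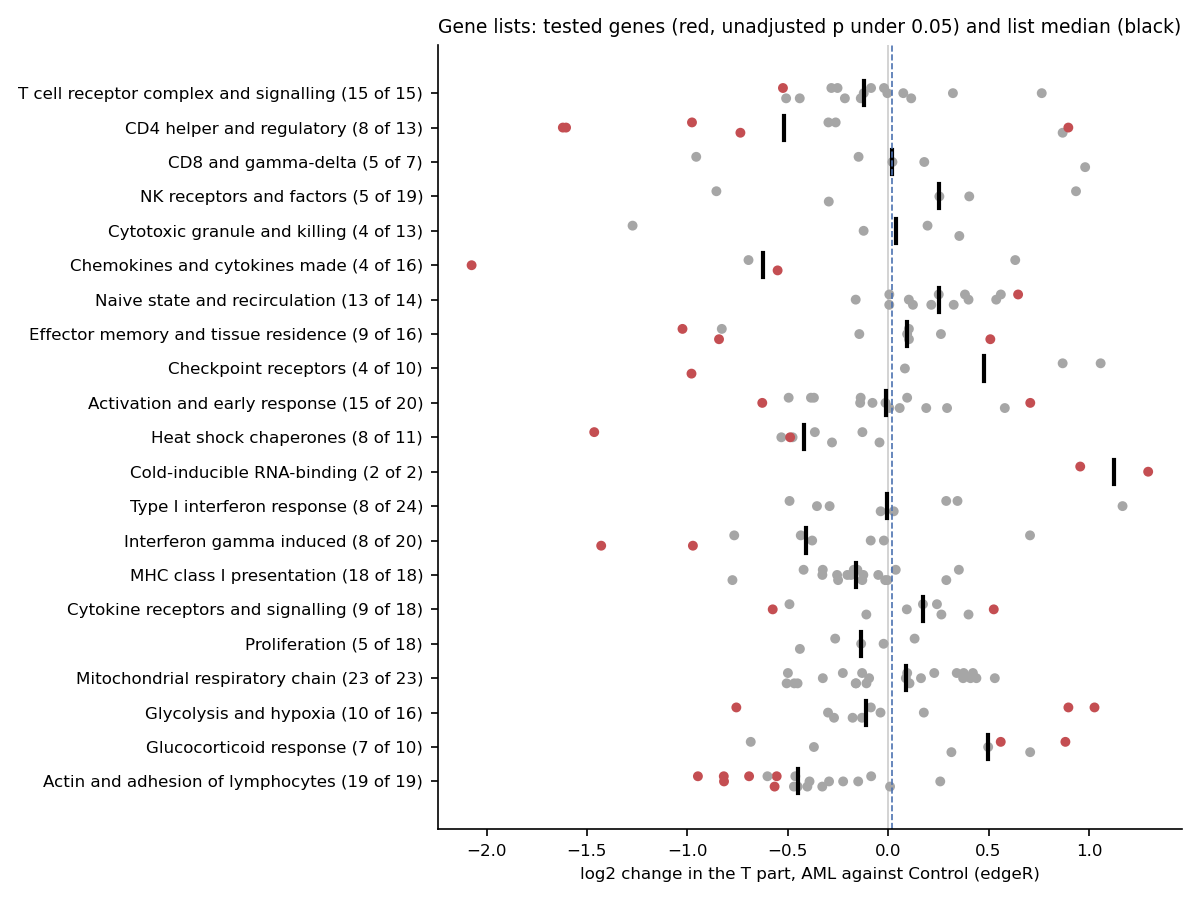
Log2 change between AML and Control in the T part for each tested gene of 21 lists, with the number tested of the number listed in brackets. Red points have an unadjusted p under 0.05, black bars are list medians and the dashed line is the median of all tested genes, 0.02. The heat shock and actin lists lie mostly to the left and the naive list mostly to the right; none of these genes passed the adjusted test.

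Summed over all lymphocytes, 4078 genes were tested and edgeR called none (0%), with a smallest adjusted p of 0.0623 for Neb. At an unadjusted p under 0.05, 132 genes were higher (3.24%) and 117 lower (2.87%), and DESeq2 called 0, with 67 at an unadjusted p under 0.05. Leaving out AML 1 gave 71 calls, 34 higher and 37 lower, the latter including Ncr1, Prf1, Klrb1c and Tyrobp. Leaving out AML 2 gave 7 calls, leaving out Control 2 or Control 3 gave 2 each, and leaving out AML 3 gave none.

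Genes of the NK part were among those lower in these sums, none of which passed. Of 19 NK receptor and factor genes, 18 lay below 0 with a median log2 change of -0.95, against 0.01 over all genes, 3 had an unadjusted p under 0.05 and AML lay entirely below Control for 7. Over all genes tested, 49% lay below 0, AML lay entirely below Control for 13.8% and entirely above for 9.15%. Prf1 gave 365, 311 and 314 CPM in Control 1, 2 and 3 and 166, 0 and 53.5 CPM in AML 1, 2 and 3 (log2 change -1.71 ± 0.87, edgeR adjusted p = 0.821). Gzma gave 3680, 2883 and 2406 CPM in Control and 1707, 0 and 775 CPM in AML (edgeR adjusted p = 0.901). AML 2, with no NK part barcode, was at 0 for both genes. The NK part made up 23.5% and 15.1% of lymphocytes in Control 2 and 3 and 17.2% and 10.5% in AML 1 and 3, and in such sums fewer NK cells and less RNA per NK cell cannot be told apart.

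Genes named by the lowest p in these sums include several of mature NK cells. S1pr5, the receptor by which NK cells leave tissues, gave 99.5, 90.7 and 65.8 CPM in Control and 13.8, 0 and 44.5 CPM in AML (log2 change -2.10 ± 0.55, edgeR adjusted p = 0.217). Cd244a, which encodes the receptor 2B4, gave 33.2, 77.7 and 58.5 CPM in Control and 24.1, 0 and 0 CPM in AML (edgeR adjusted p = 0.217). Serpinb6b, a serine protease inhibitor gene, gave 315, 201 and 143 CPM in Control and 86.2, 15.5 and 8.91 CPM in AML (edgeR adjusted p = 0.325). Every AML library lay below every Control library for Serpinb6b and S1pr5, and for Cd244a too. Serpinb6b was not confined to NK cells. Endothelial barcodes gave 75.0, 90.5 and 96.5 CPM of it in Control and 62.6, 43.1 and 55.2 CPM in AML. Their log2 change was -0.66 (edgeR adjusted p = 0.0960). The T part gave 16 and 7 Serpinb6b UMIs in Control 2 and 3 and 6, 2 and 0 in AML. Sept11, a septin gene, gave 133, 181 and 201 CPM in Control and 69.0, 30.9 and 98.0 CPM in AML (edgeR adjusted p = 0.111). In B cells Sept11 fell by 2.07 on the log2 scale (edgeR adjusted p = 0.0470).

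The AML change of the lymphocytes was also set against that of lung endothelial cells and B cells of the same libraries, by an edgeR interaction term with the library as a block. Endothelial barcodes (16415) had 182 of 12634 genes called between AML and Control (1.44%), and B cells (277) had 1 of 2934 (0.0341%), which was Sept11. The change differed between all lymphocytes and endothelial cells for 31 of 12699 genes (0.244%), 15 toward higher and 16 toward lower in lymphocytes. Of these 31, 19 had 100 or more lymphocyte UMIs in the fit and 1 had under 10. The call with the smallest p rested on 17 lymphocyte UMIs, 15 of them in AML 2. With the T part in place of all lymphocytes the change differed for 19 of 12543 genes (0.151%), of which 17 were among the 31. The number depended on single libraries, from 3 calls without Control 3 to 64 without AML 1.

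In the T part the difference from endothelial cells passed for Fam241a (log2 difference 1.63, edgeR adjusted p = 0.0260) and for Bcl2 (1.26 ± 0.31, adjusted p = 0.0298). Endothelial cells had no call for either gene, with log2 changes of 0.17 and -0.44. All barcodes other than lymphocytes, which in AML include the added leukaemia cells, gave 29.0, 40.4 and 37.5 CPM of Fam241a in Control, against 118, 113 and 100 CPM in AML, and this was not tested. For Neb the T part difference was 4.97 (edgeR adjusted p = 0.0590). Itga4 had a log2 difference of 1.61 ± 0.34 (edgeR adjusted p = 0.00595), at 290 and 319 CPM in Control 2 and 3 and 450, 440 and 331 CPM in AML in the T part, while endothelial cells had a log2 change of -1.38 (adjusted p = 0.0420). Ly6a, which encodes the surface antigen Sca-1, differed the other way (-1.47, edgeR adjusted p = 0.0242), with a log2 change of -0.14 in the T part and 1.45 in endothelial cells. For Rbm3 and Cirbp the difference did not pass, at -0.17 and -0.73 with an edgeR adjusted p of 1 for each.

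Against B cells no gene differed, for all lymphocytes (0 of 3816, 0%; 184 at an unadjusted p under 0.05) or for the T part (0 of 3703; 187 at an unadjusted p under 0.05), by edgeR. DESeq2 was not run on this difference. The T part had 2 UMIs or fewer of 6 B cell markers in every library.

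Markers of other cell types in the T part were low. Myeloid markers summed to 237, 310 and 354 CPM in Control and 253, 212 and 224 CPM in AML, with 6 or 7 of the 10 genes at 0 in each library. Epithelial markers summed to 69.4 to 227 CPM in Control and 166 to 350 CPM in AML, with Epcam at 0 by the rule; the surfactant gene Sftpc was in 30.8% to 68.2% of T part barcodes and in 39.7% to 79.9% of endothelial barcodes. T cell markers summed to 5964 and 5893 CPM in Control 2 and 3 and to 5707, 4706 and 4352 CPM in AML, and NK markers to 1401 and 944 CPM and 1407, 660 and 720 CPM. All 4 basophil and mast cell markers were at 0. None of these was tested as a part of the results above, except that leaving out the 22 lymphocytes with more than 1 myeloid UMI gave 9 calls in the T part and 8 over all lymphocytes by edgeR. That step mostly removes NK part barcodes, which fell in number from 12 to 6 in Control 2, from 8 to 2 in Control 3 and from 11 to 10 in AML 1.

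The edge of the rule was thin. Just inside it, 5 lymphocytes had 2 rule UMIs (2 in AML 2 and 3 in AML 3) and 12 had 3, against a median between 7 and 21 per library. Just outside it, 17 barcodes met all other conditions with 1 rule UMI, of which 7 had a Ptprc UMI and 1 a Cd3g or Trac UMI. The limits on endothelial genes, Epcam and B cell genes left out 98 barcodes with enough rule UMIs. The limit on Trap1a and Trnp1 left out 15 more, 8 of them without any Trap1a UMI and 6 of those with 5 or more rule UMIs. Among the members, 19 had 1 Trnp1 UMI.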

How the data were processed

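The deposited files are 10x Chromium 3′ v3.1 matrices of UMI counts per gene and barcode (32285 features, mm10), made by the authors with Cell Ranger: version 6.0.1 per the file headers, 7.0.0 per the submitters' processing notes. Libraries were grouped by their labels. The members, gene lists and markers were chosen with earlier results of these data known. UMIs were summed per library (10 or more barcodes) and tested with edgeR 4.0.16 (TMM, filterByExpr, robust quasi-likelihood, Benjamini-Hochberg, threshold 0.05) in R 4.3.3; limma 3.58.1 and DESeq2 1.42.0 were also loaded, DESeq2 as an alternative. CPM is UMIs per 1000000 of the part's own UMIs. Named genes passed the test, did not overlap between groups, had 20 CPM or more in the higher group and were no lower in members than in other barcodes; where fewer than 10 passed, up to 5 more by p are named with values, and genes of the lists may be named. Itga4 and Ly6a are list genes. No barcode was removed as a doublet; 1 member was among the top Scrublet scores. Shares were compared by exact permutation over libraries. Counts were simulated with the same dispersion for every gene (0.029 in the T part, 0.0333 for all members). On these the T part test recovered 94.3% of 4-fold and 33% of 2-fold changes (5.93% false calls, 3366 genes). The test of all members recovered 86.4% and 33% (4.55% false calls, 3927 genes). Spread that differs between genes or libraries was not simulated, so these rates may not hold for the real libraries. Gene positions are from GENCODE M21; gene models overlapping a named gene can share reads, since the strand setting of the counting is not given in the sources used here. Replicates differed by more than sampling noise (chi-square per degree of freedom 1.7 to 3.52). Results for 1 gene are not reported here.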

Additional observations from a re-analysis of the deposited data

Results flagged for a closer look

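For 6 named genes the AML change differed between all lymphocytes and the endothelial cells of the same libraries by the edgeR interaction test, over 12699 genes. The log2 difference was 5.15 for Neb (adjusted p = 0.0181), 1.82 for Fam241a (adjusted p = 0.00484) and 1.29 for Ifi203 (adjusted p = 0.0155), higher in lymphocytes. It was -1.59 for Sept11 (adjusted p = 0.0139), -1.32 for Ly6a (adjusted p = 0.0181) and -0.94 for Actb (adjusted p = 0.0383), lower in lymphocytes. Ifi203, an interferon-inducible gene, had a log2 change of -1.68 in endothelial cells (adjusted p = 0.0407) and -0.26 in lymphocytes. Ly6a had 1.45 in endothelial cells (adjusted p = 0.0533) and -0.02 in lymphocytes. Neb, Fam241a, Sept11 and Actb passed neither in endothelial cells nor in all lymphocytes, where their adjusted p-values were 0.0623, 0.111, 0.111 and 0.591. In B cells of the same libraries Sept11 had a log2 change of -2.07 (adjusted p = 0.0470) and Actb of -0.96 (adjusted p = 0.539), and for neither did the difference between lymphocytes and B cells pass.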

How the results depend on the processing

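The T part gave 3 calls. It gave 1 with DESeq2 size factors, 0 with DESeq2, 5 without a low-count filter, 1 with 3 or more rule UMIs, 9 without members holding myeloid UMIs, 14 with equal cells per library and, in settings chosen after seeing the data, 0 with Control 1 included and 6 with Trnp1 not used. All lymphocytes gave 0 calls, but 20 without the filter, 2 without top Scrublet scores, 8 without myeloid UMIs, 6 with equal cells and 1 with Trnp1 not used. Without 1 library the counts ran from 0 to 10 in the T part, 0 to 71 over all lymphocytes, 3 to 64 for the difference from endothelial cells and 0 to 8 for that from B cells, which gave 1 without the filter. The T part in place of all members gave 19 for the former. The cause was not tested.

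The replicate block gave 158 calls over all lymphocytes and 68 in the T part. Same-numbered libraries correlated at -0.05 and 0.0314 over all lymphocytes and 0.00783 and 0.0648 in the T part, with 2 pairs. These are correlations of deviations from group means, and with 2 Control libraries the deviations of Control 2 and 3 mirror each other. They therefore cannot decide whether the numbers pair the libraries.

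The difference in lymphocyte share was 0.0325 points over barcodes with at most 1 Trap1a and Trnp1 UMI, 0.586 over those with Ptprc, -0.404 (exact permutation p = 0.2) with barcodes thinned to 1000 UMIs before the rule, and -0.513 to 0.0621 without 1 library (0.0621 without Control 3). At 1000 UMIs the CD4 difference was 0.0641 and the CD8 difference -2.19 without Control 2, and the gamma-delta difference 1.16 without Control 3 and 0.877 without AML 2 or AML 3. Leaving out 1 library, the ranges were -4.01 to 0.0641 (CD4), -2.19 to 4.98 (CD8), -3.81 to 1.16 (gamma-delta), -19.3 to -5.01 (NK) and 0.738 to 9.62 (T part). Other settings for the NK part and for T against NK were not run, since the comparisons themselves missed the minimum of 10 barcodes in 2 libraries per group. With the minimum of 3 the NK part gave 0 calls without any 1 library, and T against NK gave 0 to 2; where a group then holds 1 library, that library is assumed to vary like the others.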

Other observations

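The 2 lymphocytes outside both parts differed from each other. The barcode of Control 3 (2969 UMIs) had 3 UMIs of Trbc2, 2 of Il7r and 2 of Il1rl1, the IL-33 receptor gene, and none of Nkg7. The barcode of AML 2 (6566 UMIs) had 2 UMIs of Nkg7 with 3 of Gata2, 2 of Kit, 1 of Cpa3 and 3 of Lyz2, genes of progenitor, mast and myeloid cells.

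One NK part barcode of Control 1 (12508 UMIs, 14 of Nkg7 and 12 of the NK receptors) also held 326 UMIs of 5 mesenchymal markers, which code for collagens and matrix proteins. In the T part of the same library these markers gave no UMI. The type 2 cytokine genes Il5 and Il13 gave no UMI in the T part.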
